A study of Mus musculus with 2 samples.

Results

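The SLC25 genes encode the mitochondrial carriers, a large family of solute transporters, which pass nucleotides, carboxylates, amino acids, acylcarnitines and cofactors across the inner mitochondrial membrane. They were examined in brown adipose tissue, a fat depot specialised for making heat, and their members were taken as every gene symbol made of Slc25a and a number. The table held 35 such symbols in 44 transcript rows, of 10778 symbols in 14189 rows in all. A mean abundance of at least 1 FPKM (fragments per kilobase of transcript, corrected for sequencing depth) over both libraries was reached by 34 of the 35, of 9887 genes in all. The exception was Slc25a40, described last. Another 13 symbols of the family were not analysed here, and Ucp1, Ucp2, Ucp3, Mtch1 and Mtch2, relatives with other symbols, were kept as a list beside the family.

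There were 2 groups with 1 library each. The SML library came from male mice of the strain C57BL6/J, 8 to 12 weeks of age, kept on a high-fat diet (60% of energy from fat) for 10 days and given SML at 5 mg per kg body weight by intraperitoneal injection. The HFD control library came from mice of the same strain, sex and age on the same diet for 10 days without SML. The title of the study names sesaminol, a lignan of sesame, and SML is kept here as in the labels. The number of animals behind each library was not given in the sources used here. In the table the libraries held 8503628 fragments for SML and 12001476 for HFD control. No test was possible without replicates, every difference compares 2 libraries and has no replicate check, and in bulk tissue fewer cells of a type and less RNA per cell cannot be told apart.

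The brown adipocyte list summed to 38077 FPKM in SML and 44767 FPKM in HFD control. Of its 11 measured genes of 12 listed 2 were higher in SML and 0 were lower. The gene not measured, Prdm16, fell below the filter, at 0.41 FPKM in SML and 1.42 FPKM in HFD control. Prdm16 had 33 and 155 fragments, a ratio of scaled counts of 0.289 (0.192 to 0.423, counting error only). The brown adipocyte genes ranged widely in level, and the most abundant, Cox8b, had 14824 FPKM in SML and 22044 FPKM in HFD control. Markers of other tissues were not equal between the libraries. Over all 9887 genes 5.44% were higher and 5.76% lower by the 1.5-fold rule given below. All 19 measured skeletal muscle markers of 20 listed were lower in SML, with a summed level of 454 FPKM against 4868 FPKM, and none was listed at 0. The erythroid list had 4 of 5 measured genes lower and a sum of 1027 FPKM in SML against 1990 FPKM in HFD control. The macrophage list had 6 of 9 lower (282 against 466 FPKM), the endothelial list 2 of 6 (99.8 against 173 FPKM), the white adipocyte list 3 of 5 (1621 against 2154 FPKM) and the hepatocyte list 6 of 6 (9.15 against 48.5 FPKM, with Alb, Ttr, Serpina1c and Fgb listed at 0 in SML).

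Each carrier of this family is built from a tandem repeat of paired membrane helices, and the substrate is moved by alternating between a state open to the cytosol and a state open to the matrix. In brown fat the family includes Ucp1, which lets protons back into the matrix and makes heat, so the other carriers work beside a leak that drives substrate oxidation at a high rate. The coding sequences of the 35 members in GENCODE M21 (GRCm38, the same assembly as the mm10 of the files) ran from 274 codons for Slc25a26 to 677 for Slc25a12, and 30 of 35 had 280 to 370 codons. The members lay on 19 chromosomes.

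The closest pair in coding sequence was Slc25a4 and Slc25a5, the ADP/ATP carriers ANT1 and ANT2, which were identical at 77.5% of 897 bases. The next were the iron carriers Slc25a28 and Slc25a37, with 66.4% identity over the longer coding sequence. The stretch of 90 bases in which Slc25a4 and Slc25a5 were most alike is shown because it is where their fragments are hardest to tell apart. It covers coding bases 38 to 127 of each gene, counted from the start codon, and capitals mark the 12 bases that differ.
Slc25a4: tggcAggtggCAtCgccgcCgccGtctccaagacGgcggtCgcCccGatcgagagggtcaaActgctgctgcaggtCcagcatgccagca
Slc25a5: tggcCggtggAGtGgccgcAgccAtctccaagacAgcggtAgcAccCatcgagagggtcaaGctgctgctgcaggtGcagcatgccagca
The longest run of bases shared by both coding sequences was 20. No stretch of 50 coding bases was therefore the same in this pair, while 46.6% of the 50-base words of Slc25a5 also occurred in transcripts of 9 other annotated genes, led by the processed pseudogene Gm5560. How the authors' counting treated such fragments was not given in the sources used here, so the level of Slc25a5 is uncertain. These words were read from 1 transcript per member, the one with the longest coding sequence. By that count 18 of the 35 members had no 50-base word in common with a transcript of another gene, and 17 of these also had no exon overlap with another gene. The exception was Slc25a35, in which other transcripts overlap Rangrf.

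The libraries were first compared for the family as a whole, to ask how carrier transcripts differed with SML on this diet. By the rule of a 1.5-fold difference in FPKM + 1, Slc25a46, Slc25a15, Slc25a16 and Slc25a51 were higher in SML, and Slc25a12 and Slc25a10 were lower. The other 28 of 34 were neither. The 4 higher members are 11.8% of the family, beside 5.44% of all 9887 genes, and the 2 lower members are 5.88%, beside 5.76% of all genes. The median difference, as log2(FPKM + 1) in SML minus HFD control, was 0.03 for the members and 0 for all genes. The quartiles of the members were -0.25 and 0.24, and those of all genes -0.21 and 0.22. The summed level of the family was 4149 FPKM in SML and 4342 FPKM in HFD control, or 0.526% and 0.519% of all FPKM in the table.

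**Figure D1:**
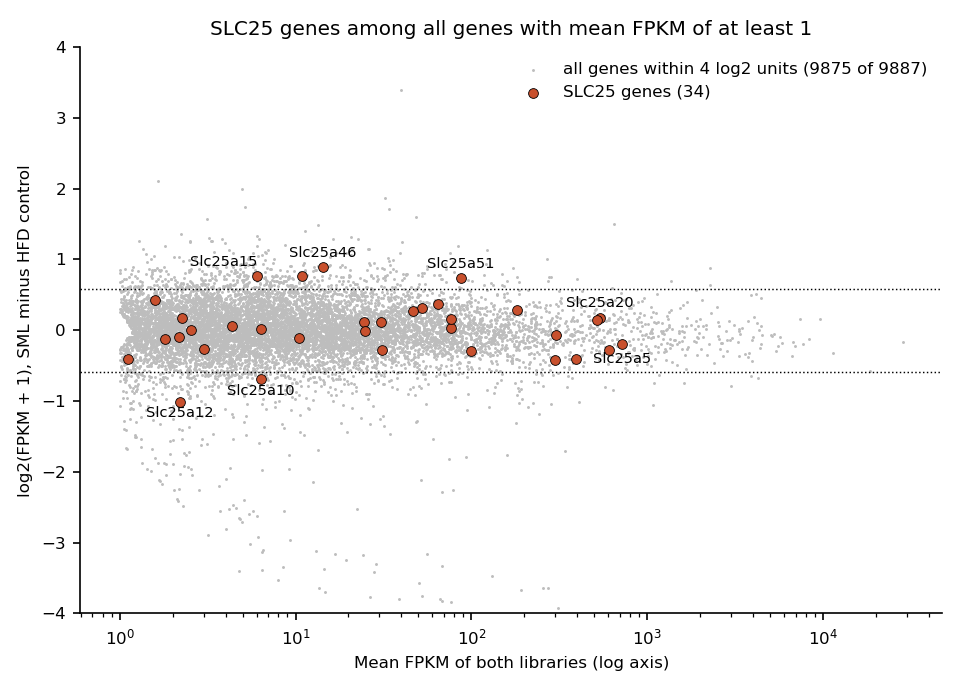
Difference between the libraries, as log2(FPKM + 1) in SML minus HFD control, against mean FPKM (log axis) for the 34 SLC25 genes (large points) and the 9875 of 9887 genes whose difference lay within 4 log2 units (small points). Dotted lines mark 1.5-fold: 4 SLC25 genes lie above the upper line and 2 below the lower one.

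The most abundant members were the ADP/ATP carriers, the acylcarnitine carrier Slc25a20, the glutathione carrier Slc25a39 and the citrate carrier Slc25a1. These 5 held 64.3% of the family's FPKM in SML and 66.3% in HFD control. Slc25a5 had rank 1 in both libraries. The 6 members with a mean of at least 300 FPKM differed by -0.40 to 0.17, and none passed the rule. The 15 members under 20 FPKM differed by -1.01 to 0.89 and included 5 of the 6 that did. Of these 15, 3 (20%) were higher and 2 (13.3%) lower, beside 6.03% and 6.13% of all 6882 genes under 20 FPKM. Values of single genes are followed by a ratio of scaled counts, SML over HFD control, in parentheses or named as a ratio, with a 95% interval that covers counting error only.

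**Figure D2:**
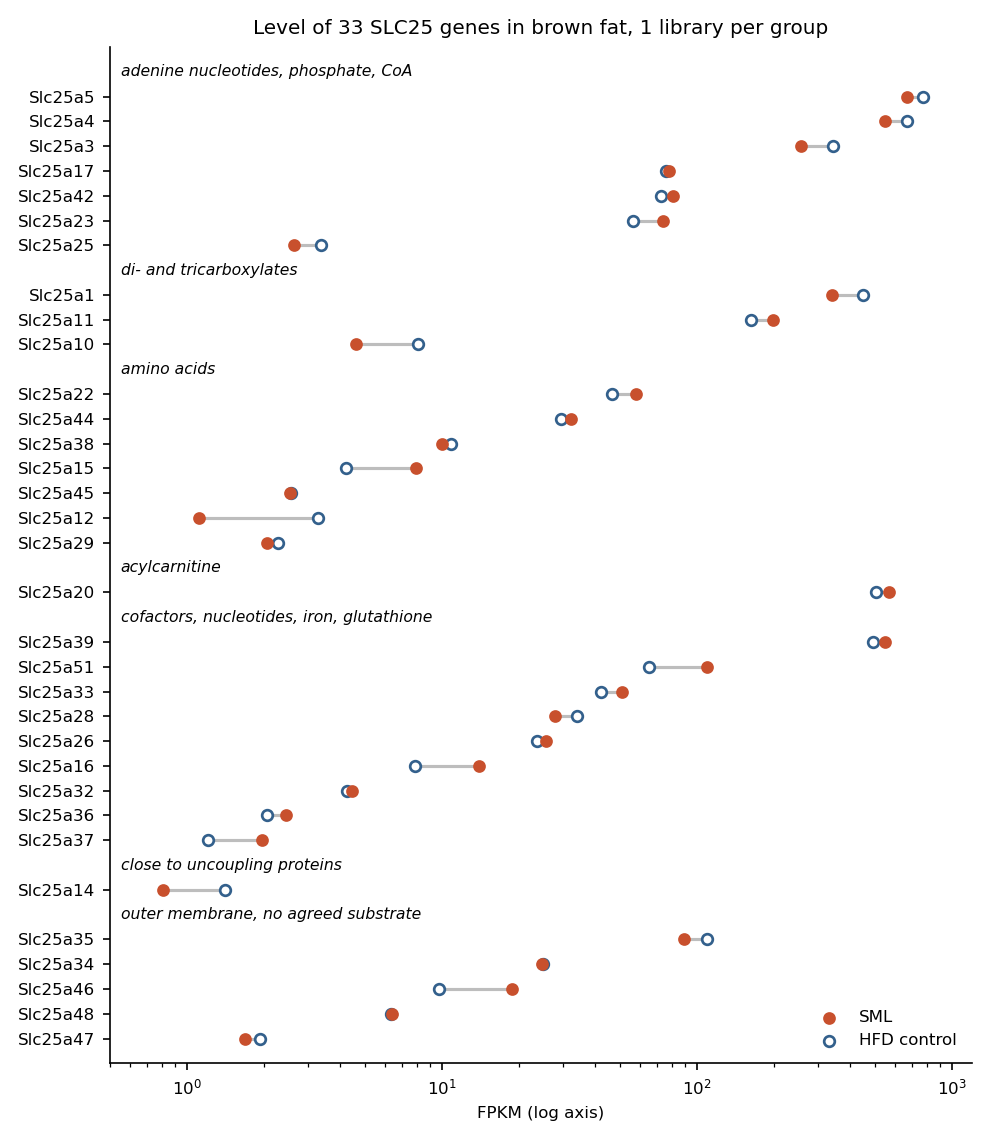
FPKM (log axis) of 33 of the 34 SLC25 genes with a mean of at least 1 FPKM in the SML library (filled points) and the HFD control library (open points), grouped by what the carriers move. Slc25a5 at 668 FPKM in SML and 769 FPKM in HFD control is the highest, and the widest gap is that of Slc25a12 at 1.12 and 3.27 FPKM.

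Carriers of adenine nucleotides and phosphate supply ATP synthase with ADP and phosphate and export the ATP. None of the 7 measured members passed the rule in either direction, and their median difference was -0.20. Slc25a5, the widely expressed ADP/ATP carrier, stood at 668 FPKM in SML and 769 FPKM in HFD control, a ratio of 0.866 (0.841 to 0.892). Slc25a4, the ADP/ATP carrier known from heart and muscle, stood at 546 FPKM in SML and 665 FPKM in HFD control, a ratio of 0.817 (0.789 to 0.847). Slc25a3, the phosphate carrier, stood at 256 FPKM in SML and 341 FPKM in HFD control, a ratio of 0.747 (0.716 to 0.779). All 3 intervals lay below 1, in libraries whose skeletal muscle markers summed to 454 FPKM in SML and 4868 FPKM in HFD control, and the part of muscle RNA in these values was not tested.

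The carriers that exchange ATP-Mg for phosphate set the size of the matrix adenine nucleotide pool. Slc25a23 had 73.4 FPKM in SML and 56.4 FPKM in HFD control (ratio 1.3, 1.23 to 1.38), while Slc25a25 had 2.64 FPKM in SML and 3.36 FPKM in HFD control on 77 and 133 fragments (0.787, 0.586 to 1.05). Slc25a42, which brings coenzyme A into mitochondria in exchange for adenine nucleotides, had 80.8 FPKM in SML and 72.1 FPKM in HFD control (1.12, 1.06 to 1.18). Slc25a17, the peroxisomal member of the group, had 77.9 FPKM in SML and 76.0 FPKM in HFD control, with an interval that included 1 (0.946 to 1.11). The summed level of the 7 was 1704 FPKM in SML and 1983 FPKM in HFD control, which was 41.1% and 45.7% of the family.

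Among the carriers of di- and tricarboxylates 1 of 3 was lower and 0 were higher (all genes: 5.76% and 5.44%). Slc25a10, which exchanges malate or succinate for phosphate, was 1.75-fold lower (1.46 to 2.11), at 4.62 FPKM in SML and 8.10 FPKM in HFD control. Slc25a1, which exports the citrate from which cytosolic acetyl-CoA is made, stood at 339 FPKM in SML and 449 FPKM in HFD control, with a ratio of 0.754 (0.728 to 0.780) that did not reach the rule. Slc25a11, which exchanges oxoglutarate for malate, stood at 199 FPKM in SML and 163 FPKM in HFD control (1.22, 1.16 to 1.28). Slc25a10 overlaps an annotated antisense gene over 6.6% of its exon bases, and fragments of both cannot be told apart without strand, which the labels do not state.

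The enzymes around the citrate carrier were listed beside it. Of 8 measured genes of citrate export and cytosolic acetyl-CoA 0 were higher and 2 were lower (all genes: 5.44% and 5.76%). The median was -0.26. Acly, which splits exported citrate, was 1.89-fold lower (1.83 to 1.96), at 125 FPKM in SML and 237 FPKM in HFD control. Fasn, the fatty acid synthase, was 1.8-fold lower (1.78 to 1.82), at 456 FPKM in SML and 821 FPKM in HFD control. Cs, the citrate synthase, had 855 FPKM in SML and 981 FPKM in HFD control (0.870, 0.856 to 0.885).

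The 7 amino acid carriers held 1 higher and 1 lower member (all genes: 5.44% and 5.76%). Slc25a12, the calcium-activated aspartate/glutamate carrier of the malate-aspartate shuttle, was 2.92-fold lower (1.94 to 4.51), at 1.12 FPKM in SML and 3.27 FPKM in HFD control. It rested on 30 fragments in SML and 119 in HFD control, and was the 1 member of 34 that also passed a 2-fold rule, which 1.96% of all genes passed as lower. Its difference of -1.01 lay close to the 2-fold limit. With totals equal outside the 50 most abundant genes it was -0.98, short of that limit. As higher, 0 members and 0.668% of all genes passed the 2-fold rule. Slc25a12 is known from heart, skeletal muscle and brain, and the skeletal muscle markers were lower in the same library with a median of -3.64. The part of muscle RNA in its value was not tested. Slc25a15, the ornithine carrier that links mitochondria to the urea cycle, was 1.87-fold higher (1.54 to 2.28), at 7.90 FPKM in SML and 4.22 FPKM in HFD control, on 252 and 183 fragments.

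The other amino acid carriers were closer between the libraries. Slc25a22, the glutamate carrier, stood at 58.0 FPKM in SML and 46.6 FPKM in HFD control (1.24, 1.15 to 1.34). Slc25a44, which imports branched-chain amino acids into brown fat mitochondria, stood at 31.99 FPKM in SML and 29.4 FPKM in HFD control (1.09, 1.003 to 1.18). Slc25a38, the glycine carrier of haem synthesis, stood at 9.98 FPKM in SML and 10.8 FPKM in HFD control (0.919, 0.734 to 1.15). Slc25a29, a carrier of basic amino acids, and Slc25a45 were low, at 2.07 and 2.55 FPKM in SML and 2.28 and 2.56 FPKM in HFD control, and both intervals included 1.

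Of the 8 enzymes of the malate-aspartate and glycerol phosphate shuttles 0 were higher and 2 were lower (all genes: 5.44% and 5.76%). The median was -0.04. The lower ones were the aspartate aminotransferases of the shuttle that Slc25a12 and Slc25a11 complete, while Slc25a11 had a ratio of 1.22 (1.16 to 1.28). Got1, the cytosolic form, was 2.17-fold lower (1.85 to 2.54), at 11.7 FPKM in SML and 25.3 FPKM in HFD control. Got2, the mitochondrial form, was 1.75-fold lower (1.53 to 2.02), at 13.7 FPKM in SML and 23.9 FPKM in HFD control. The skeletal muscle markers had a median of -3.64 in the same comparison, and the part of muscle RNA in the Got1 and Got2 values was not tested. Mdh2, the mitochondrial malate dehydrogenase, stood at 2168 FPKM in SML and 2152 FPKM in HFD control (1.004, 0.987 to 1.02). Gpd1, the glycerol phosphate dehydrogenase of the other shuttle, stood at 3926 FPKM in SML and 3572 FPKM in HFD control (1.10, 1.09 to 1.11).

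Slc25a20, which exchanges acylcarnitine for carnitine and so admits long-chain fatty acids to oxidation, stood at 568 FPKM in SML and 504 FPKM in HFD control. Its ratio of 1.13 (1.09 to 1.16) rested on 8860 fragments in SML and 10700 in HFD control. It had rank 2 in the family in SML and rank 3 in HFD control. Of the 6 genes of the carnitine cycle 0 were higher and 0 were lower, and the median was 0.12. Cpt1b, the transferase that makes acylcarnitine, stood at 496 FPKM in SML and 448 FPKM in HFD control (1.11, 1.08 to 1.13), and Cpt2, the one that takes the carnitine off again, at 385 FPKM in SML and 393 FPKM in HFD control (0.976, 0.948 to 1.004).

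The carriers of cofactors, nucleotides, metals and glutathione held 2 higher members of 10 and 0 lower (all genes: 5.44% and 5.76%). Their median was 0.16. Slc25a51, the carrier that brings NAD into mitochondria, was 1.68-fold higher (1.61 to 1.76), at 109 FPKM in SML and 65.0 FPKM in HFD control. It rested on 4537 fragments in SML and 3669 in HFD control, the most of any member past the rule, and had rank 9 in the family in SML. Slc25a16, linked to the mitochondrial supply of coenzyme A, was 1.79-fold higher (1.54 to 2.09), at 14.04 FPKM in SML and 7.82 FPKM in HFD control.

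Most carriers of this group were at similar levels in the libraries. Slc25a26, the carrier of S-adenosylmethionine, had 25.6 FPKM in SML and 23.5 FPKM in HFD control (1.09, 0.955 to 1.23), and Slc25a32, a carrier of folate and flavin, had 4.46 FPKM in SML and 4.26 FPKM in HFD control (1.05, 0.817 to 1.33). The pyrimidine nucleotide carriers were Slc25a33 at 50.7 FPKM in SML and 42.0 FPKM in HFD control (1.2, 1.10 to 1.32) and Slc25a36 at 2.46 FPKM in SML and 2.07 FPKM in HFD control (1.19, 0.847 to 1.66).

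The iron carriers are a pair, mitoferrin 1 of red cell precursors and the broadly expressed mitoferrin 2. Slc25a37, mitoferrin 1, stood at 1.98 FPKM in SML and 1.21 FPKM in HFD control, on 77 and 64 fragments. Its count ratio of 1.63 (1.16 to 2.31) was over 1.5, but the pseudocount of 1 left its difference at 0.43, under the rule. Slc25a28, mitoferrin 2, stood at 27.8 FPKM in SML and 33.97 FPKM in HFD control (0.815, 0.714 to 0.930). Slc25a37 was thus above 1 while the erythroid markers summed to 1027 FPKM in SML and 1990 FPKM in HFD control. Slc25a39, the glutathione carrier, stood at 545 FPKM in SML and 491 FPKM in HFD control (1.11, 1.07 to 1.14). Of 11 partners of iron, haem and glutathione in mitochondria 0 were higher and 1 was lower (all genes: 5.44% and 5.76%). The median was -0.02. The lower one was Alas2, the erythroid enzyme of haem synthesis and itself an erythroid marker, at 7.24 FPKM in SML and 12.3 FPKM in HFD control (1.72-fold, 1.39 to 2.14). The most abundant were Gpx4, a glutathione peroxidase, at 3260 FPKM in SML and 4244 FPKM in HFD control, and Iscu, the scaffold of iron-sulfur cluster assembly, at 412 FPKM in SML and 419 FPKM in HFD control.

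In the group of the outer membrane and of carriers without an agreed substrate 1 of 5 was higher and 0 were lower. Of all genes 5.44% were higher and 5.76% lower. Slc25a46, which sits in the outer mitochondrial membrane and takes part in fission and lipid transfer, was 1.94-fold higher (1.73 to 2.16), at 18.9 FPKM in SML and 9.76 FPKM in HFD control, on 772 and 542 fragments. Its difference of 0.89 was the largest positive one of the members as deposited. With the trend on GC content and length over all genes removed it was 0.58, under the limit of 0.585, and Slc25a51, Slc25a16 and Slc25a15 had larger ones, at 0.85, 0.71 and 0.67. It overlaps the protein-coding gene B930094E09Rik on the other strand over 8.56% of its exon bases. Slc25a35 stood at 89.2 FPKM in SML and 109 FPKM in HFD control (0.814, 0.762 to 0.870), and 31.3% of its exon bases are shared with Rangrf on the other strand, which stood at 16.1 FPKM in SML and 16.3 FPKM in HFD control. Slc25a34, a relative of Slc25a35, stood at 24.6 FPKM in SML and 24.9 FPKM in HFD control (0.989, 0.889 to 1.10). Slc25a48, at 6.4 FPKM in SML and 6.3 FPKM in HFD control, and Slc25a47, a carrier known from liver, at 1.69 FPKM in SML and 1.94 FPKM in HFD control, had intervals that included 1.

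The relatives of Ucp1 were last. Slc25a14, known as a brain uncoupling protein, had 0.81 FPKM in SML and 1.41 FPKM in HFD control on 10 and 23 fragments, with an interval of 0.251 to 1.29. Of the 5 genes of the superfamily under other symbols 0 were higher and 0 were lower. Ucp1 had 7955 FPKM in SML and 8702 FPKM in HFD control (0.912, 0.905 to 0.919), which was above the summed level of all 35 members in each library. Ucp2, found in many tissues including immune cells, had 51.5 FPKM in SML and 74.2 FPKM in HFD control (0.693, 0.632 to 0.759), in libraries whose macrophage markers summed to 282 FPKM in SML and 466 FPKM in HFD control. Ucp3, a form of muscle and brown fat, had 71.0 FPKM in SML and 52.8 FPKM in HFD control (1.34, 1.25 to 1.44). The skeletal muscle markers summed to 454 FPKM in SML and 4868 FPKM in HFD control. The parts of macrophage RNA in the Ucp2 value and of muscle RNA in the Ucp3 value were not tested. Mtch2, an outer membrane relative, had 350 FPKM in SML and 327 FPKM in HFD control (1.07, 1.04 to 1.10). Of 14 other transporters of the inner membrane 1 was higher and 0 were lower (all genes: 5.44% and 5.76%). Their median difference was 0.20. The pyruvate carrier genes Mpc1 and Mpc2 were the most abundant. Mpc1 had 1429 FPKM in SML and 1602 FPKM in HFD control, and Mpc2 had 1384 FPKM in SML and 1234 FPKM in HFD control.

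**Figure D3:**
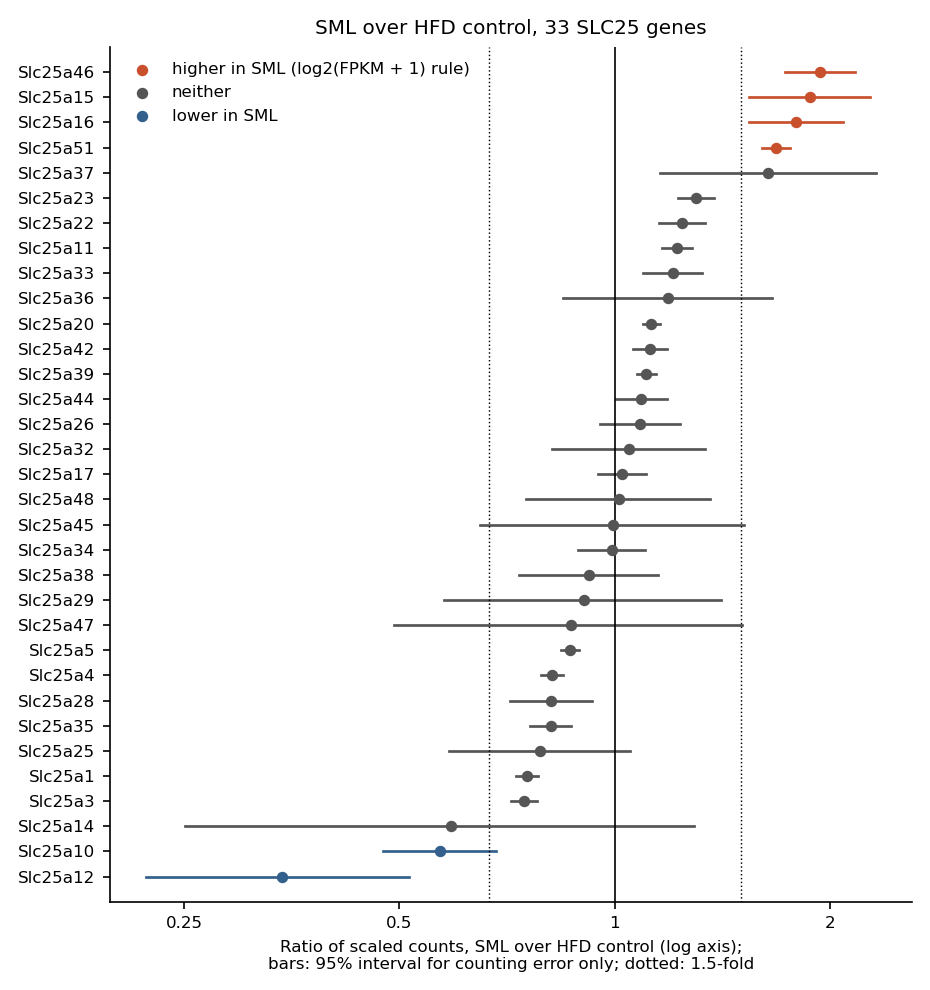
Ratio of scaled counts, SML over HFD control (log axis), of 33 of the 34 SLC25 genes with 95% intervals for counting error only, ordered by ratio. Colours follow the rule on log2(FPKM + 1) and dotted lines mark 1.5-fold. The ratios run from 0.343 for Slc25a12 to 1.94 for Slc25a46, and the intervals of 13 genes lie above 1, of 8 below 1 and of 12 include 1.

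**Figure D4:**
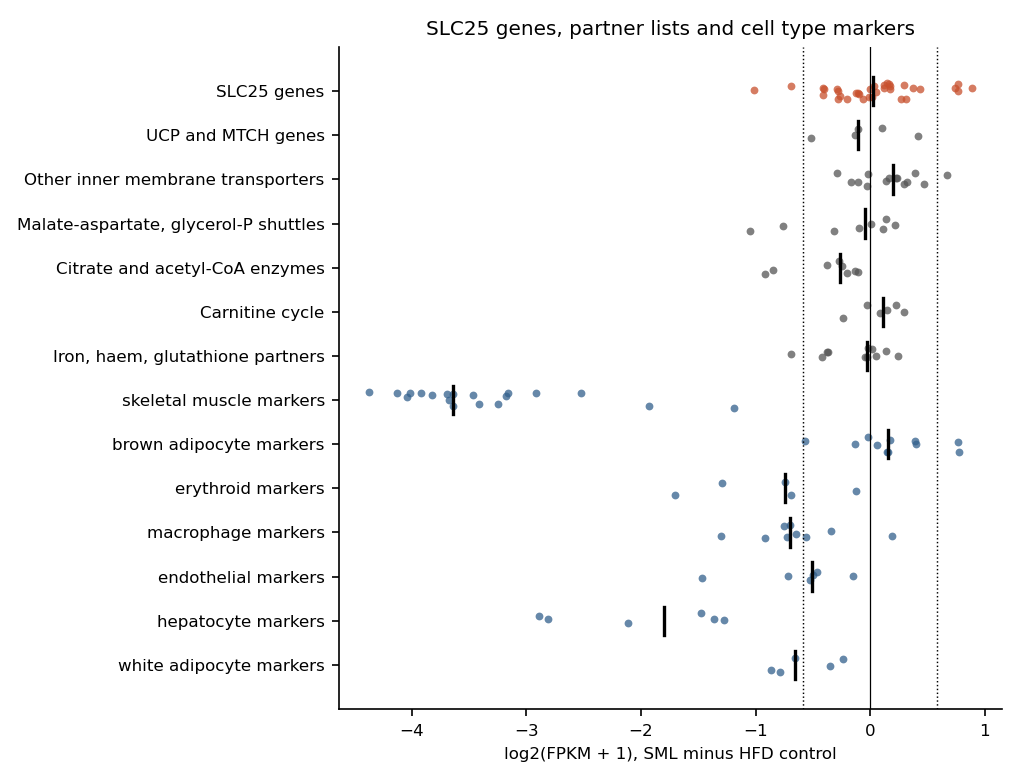
Difference between the libraries, as log2(FPKM + 1) in SML minus HFD control, for the SLC25 genes, the partner lists and the markers of cell types. Each point is a gene, the vertical bar is the median of the list and dotted lines mark 1.5-fold. The SLC25 median is 0.03 and the skeletal muscle median is -3.64.

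The base composition of transcripts moved with the difference across the table. GC content and length were taken as medians over the annotated coding transcripts of a gene. Spearman's rho between the difference and GC content was -0.31 over 9524 genes and -0.13 over the 34 members. Both values share the same pair of libraries. With the trend on GC content and length removed over the whole table, Slc25a51, Slc25a16 and Slc25a15 were higher and Slc25a10 and Slc25a12 lower. The higher members were 3 of 34, or 8.82%, beside 3.71% of all genes, and the lower were 2, beside 5.4%. Slc25a46, whose transcripts have a GC content of 40.7%, was no longer called. Slc25a51 had 0.85 in place of 0.74, and Slc25a10 had -0.60 in place of -0.70. For Slc25a51 the medians were 53.1% GC and 1005 bases, while its transcript with the longest coding sequence has 47.9% and 4433 bases. For Slc25a16 they were 48.5% and 2091.5 bases, beside 43.4% and 3145 bases. The trend was not tested with those transcripts, so the values of Slc25a51 and Slc25a16 with the trend removed are uncertain. Slc25a36, Slc25a17 and Slc25a32 had differences of -0.16, -0.12 and -0.07 in place of 0.17, 0.04 and 0.05.

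**Figure D5:**
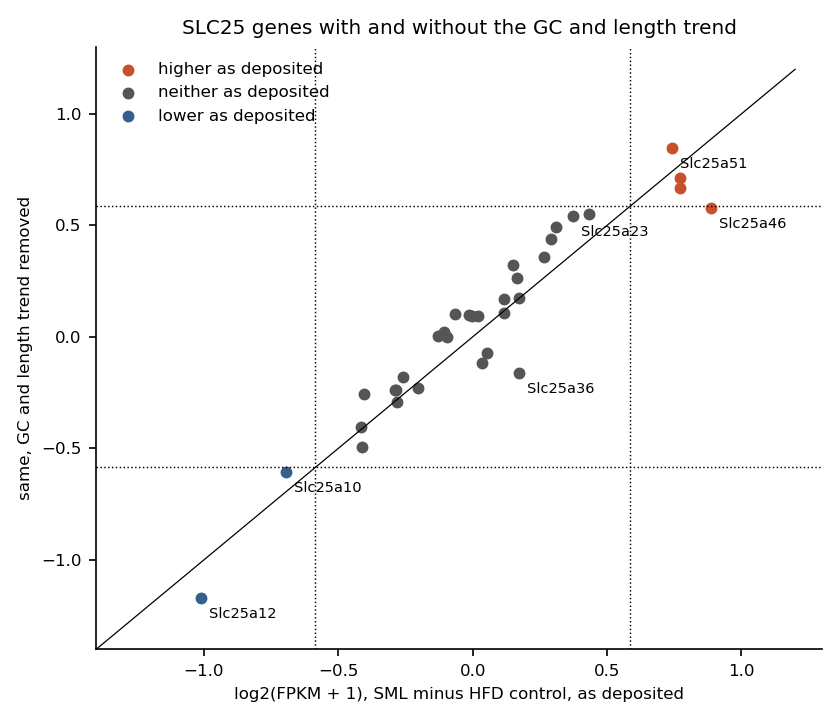
Difference between the libraries, as log2(FPKM + 1) in SML minus HFD control, of the 34 SLC25 genes as deposited (horizontal axis) and with the trend on GC content and length removed (vertical axis). The diagonal marks equal values and dotted lines mark 1.5-fold. Slc25a46 is the 1 gene that crosses a limit, from 0.89 to 0.58.

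RefSeq promoter windows (GRCm38.p6), from 250 bases before to 50 after a RefSeq start of the gene, were found for 27 of the 35 members. The window nearest to the deposited start was taken. Its RefSeq start lay 4006 bases from the deposited one for Slc25a25, 644 for Slc25a45 and 201 for Slc25a12. The member windows had a median GC content of 60.7% and a median of 18 CG dinucleotides, beside 52.7% and 7 in all 32851 windows of the RefSeq table, whatever the kind of gene. The GC box GGGCGG, searched like the other motifs on both strands, was in 25 of 27 member windows, or 92.6%, and in 35.7% of all windows. In 0 member windows did its letters overlap those of another motif searched. CCAAT was in 14 of 27 (51.9%) and in 37.4% of all windows, the ETS motif CCGGAAG in 6 (22.2%) and 8.86%, the CRE half-site TGACGT in 4 (14.8%) and 7.51%, and no other motif searched was in a member window. These were the TATA box TATAAA (13.6% of all windows), the NRF-1 motif GCATGCGC (2.71%) and the ERR element TCAAGGTCA (0.423%). A match is a description of the letters in the window and not a binding site. The windows of the 4 members past the rule that have one are shown, since these genes carry the calls described above, with GGGCGG and CCAAT in capitals on either strand.
Slc25a51 and Slc25a46 had no window to show. The window of Slc25a12 is chr2:71367706-71368005 on the minus strand and held none of the motifs.
Slc25a12: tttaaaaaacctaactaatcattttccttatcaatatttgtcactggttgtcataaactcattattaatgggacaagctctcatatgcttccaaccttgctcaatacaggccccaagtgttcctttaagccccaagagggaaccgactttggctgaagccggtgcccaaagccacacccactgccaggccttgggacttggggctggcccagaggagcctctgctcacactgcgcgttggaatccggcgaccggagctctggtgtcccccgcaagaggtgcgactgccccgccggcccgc
The window of Slc25a10 is chr11:120491587-120491886 on the plus strand and held GGGCGG at 2 places and CCAAT at 1.
Slc25a10: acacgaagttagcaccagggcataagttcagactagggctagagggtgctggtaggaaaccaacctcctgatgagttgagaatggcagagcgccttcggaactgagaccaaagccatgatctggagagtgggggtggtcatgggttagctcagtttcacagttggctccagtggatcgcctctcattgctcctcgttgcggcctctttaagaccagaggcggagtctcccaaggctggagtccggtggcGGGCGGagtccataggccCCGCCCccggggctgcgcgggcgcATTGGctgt
The window of Slc25a15 is chr8:22398572-22398871 on the minus strand and held GGGCGG at 3 places.
Slc25a15: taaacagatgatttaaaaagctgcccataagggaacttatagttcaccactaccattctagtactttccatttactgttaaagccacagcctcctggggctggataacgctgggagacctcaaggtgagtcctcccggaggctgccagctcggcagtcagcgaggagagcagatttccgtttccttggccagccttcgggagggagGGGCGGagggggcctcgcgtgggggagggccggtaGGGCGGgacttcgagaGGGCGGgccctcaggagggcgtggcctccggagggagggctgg
The window of Slc25a16 is chr10:62920383-62920682 on the plus strand and held GGGCGG at 1 place.
Slc25a16: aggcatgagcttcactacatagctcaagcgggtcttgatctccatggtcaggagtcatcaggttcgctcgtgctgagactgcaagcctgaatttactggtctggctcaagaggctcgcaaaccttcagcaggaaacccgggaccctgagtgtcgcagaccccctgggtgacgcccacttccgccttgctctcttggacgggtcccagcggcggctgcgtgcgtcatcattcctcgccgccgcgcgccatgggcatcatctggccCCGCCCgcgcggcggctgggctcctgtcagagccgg
Of these 4 genes, Slc25a15 and Slc25a16 were higher in SML and Slc25a12 and Slc25a10 lower, and a GGGCGG stood in the windows of both higher genes and of 1 lower gene.

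Slc25a40, the close relative of the glutathione carrier Slc25a39, fell below the filter, at 0 FPKM as listed in SML and 0.73 FPKM in HFD control. Its count columns held 28 fragments in SML and 25 in HFD control, a count ratio of 1.52 (0.856 to 2.72). The listed 0 thus stood beside counted fragments, and no fold is drawn from the FPKM. The members nearest to the rule's limits were, among those called, Slc25a10 at -0.70 and Slc25a51 at 0.74, and among those not called Slc25a3 at -0.42 and Slc25a37 at 0.43.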

How the data were processed

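Per the labels' protocols, poly(A) RNA of brown fat was made into TruSeq libraries. The authors deposited 1 table with FPKM and a count per transcript and library, and per the submitters' processing notes CASAVA 1.8, Cufflinks and the build mm10 were used. The alignment, the annotation and the filters used were not given in the sources used here. Both deposited count columns are a scaled signal and not raw counts: their low values moved in steps of 0.866 in SML and 0.637 in HFD control. Of 762 and 527 low values of up to 20 steps, 91.3% in each were whole within 0.1. Dividing by the step gave the fragments.

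Transcript rows were summed per symbol. The difference was log2(FPKM + 1) in SML minus HFD control, which understates the change of low genes, over every gene whose mean FPKM reached 1. A gene counted as higher or lower at 1.5-fold. Intervals on count ratios are exact conditional binomial (95%), cover counting error only, and treat PCR copies as molecules. GC content and length came from GENCODE M21 as medians over a gene's coding transcripts, or over all its transcripts where none was coding. They were found for 9524 of 9887 genes, and a polynomial of degree 3 in both was removed as an alternative. Deposited starts count from 0 and were moved to 1-based. Python 3.11.15, pandas 2.3.3, scipy 1.17.1 and Biopython 1.88 were used, and the procedure was tested on simulated data. Members at or over that mean are named, and of the other lists the genes past the rule or among the most abundant; Ucp2 and Ucp3 are further choices, made with their values known. A few genes covered by this naming are left out of the text and are not reported here. The members and lists were chosen with earlier results of these data known. No sample column was left unused.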

Additional observations from a re-analysis of the deposited data

Results flagged for a closer look

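Slc25a40 is drawn out because a signal appears in the count column that the FPKM comparison does not use. Its FPKM is listed at 0 in SML, beside 28 fragments in the SML count column and 25 in HFD control. The 28 fragments are above the 3 counts that a true 0 allows. An FPKM of 0 beside any count above 0 was listed for 1443 transcript rows in SML and 274 in HFD control. That wider tally has no limit of 3 counts, and in SML it includes a row of Slc25a44 with 2.83 fragments.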

How the results depend on the processing

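The 4 higher and 2 lower members were the same genes with the highest transcript row per symbol, scaled counts in place of FPKM, both other scalings, and without rows at 0 FPKM that have a count. In these settings 5.5% to 7.24% of all genes were higher and 4.96% to 7.06% lower. The highest row and the leaving out of rows at 0 FPKM could not change the calls of these members. Each of them has 1 transcript row, with FPKM above 0 in both libraries. A pseudocount of 0.1 added Slc25a37 as higher and Slc25a14 as lower, beside 8.57% higher and 8.43% lower of all genes. No filter added Slc25a40 as lower, beside 5.3% higher and 10.4% lower of 10778 genes. The Slc25a40 call rests on its listed 0 FPKM, while its count ratio was 1.52 (0.856 to 2.72). With a mean FPKM of at least 5, 4 of 25 members were higher and 1 was lower, since Slc25a12 was not tested, beside 5.18% higher and 4.97% lower of 6156 genes. Removal of the GC and length trend left 3 higher and 2 lower, beside 3.71% and 5.4% of all genes. By the 2-fold rule 0 were higher and 1 was lower, beside 0.668% and 1.96%. The lower one, Slc25a12, had -1.01 as deposited. With totals equal outside the 50 most abundant genes it had -0.98, short of the 2-fold limit. Of 297 values of single members under these alternatives 281 moved by less than their counting interval, 16 by more, and 0 of the called ones changed sign. The 281 include many values that could not move. A changed filter leaves the value of a member as it is, and 32 of the 35 members have only 1 transcript row to choose from. Leaving out rows at 0 FPKM changed only Slc25a44 among the 34 members.

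Over all genes, 847 of 9887 were higher with a pseudocount of 0.1 and 1117 of 10778 lower without a filter. With a mean FPKM of at least 5, 319 of 6156 were higher and 306 lower, with the trend removed 353 of 9524 were higher, and by the 2-fold rule 66 of 9887 were higher and 194 lower. Equal totals outside the 50 most abundant genes moved the SML values by 0.05 on the log2 scale. No paired analysis was possible because each group has 1 library, and no library could be left out for the same reason.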
